A study of Mus musculus with 24 samples.

Results

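The genes described here were 8 regulators of mitochondrial biogenesis, chosen by name: the 3 coactivators of the PGC-1 family (*Ppargc1a*, *Ppargc1b*, *Pprc1*), the nuclear receptor and DNA-binding factors through which those coactivators act (*Esrra*, *Nrf1*, *Gabpa*), and 2 nuclear-encoded factors of mitochondrial DNA transcription (*Tfam*, *Tfb2m*). All 8 were found among the 55487 genes of the count table, and all 8 passed the filter on low counts that kept 15828 genes for testing. The cells were mouse embryonic fibroblasts (MEFs), wild-type (WT) or labelled AMPK KO, which the study's methods describe as lacking *Prkaa1* and *Prkaa2*, the genes of the catalytic AMPK subunits. Both genotypes received the vehicle DMSO, the AMPK activator MK-8722 or the MTOR inhibitor torin1, which gave 6 groups of 4 libraries of poly(A) RNA, and the labels gave neither dose nor duration. Within each genotype the 4 libraries of a group came from 4 passages (12 to 15 in WT, 16 to 19 in AMPK KO), so that genotype and passage range cannot be told apart. No label names separate lines, and p-values therefore measure the spread between passages.

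PGC-1 coactivators do not bind DNA themselves and are recruited to promoters by transcription factors such as ERRα (*Esrra*), NRF1 and the GABP complex, whose DNA-binding subunit is encoded by *Gabpa*. Those factors drive nuclear genes of the respiratory chain together with *Tfam* and *Tfb2m*, whose products enter mitochondria and start transcription of the mitochondrial genome; TFAM also packages that genome. AMPK activity is linked to PGC-1α in muscle and brown fat, and MTOR signalling is linked to mitochondrial gene expression in proliferating cells. *Ppargc1a* is high in oxidative tissues and low in most cultured fibroblasts.

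Total estimated counts ranged from 26900240 to 34192685 per library, and log2 CPM (counts scaled to library size) correlated at 0.989 to 0.993 between replicates of a group (Pearson's r across genes, 36 pairs). Transcripts of the knocked-out genes were still counted in AMPK KO libraries: *Prkaa1* was at 65.6 to 82.5 CPM there and at 71.3 to 84.5 CPM in WT, and *Prkaa2* at 2.34 to 5.71 and 3.22 to 9.01 CPM. Counts over a whole gene do not show which exons the deletion removed, so they could not check the genotype labels. Of 10 fibroblast markers, *Fn1* (group means 2085 to 6334 CPM), *Vim* (1783 to 5043 CPM) and *Col1a1* (449.5 to 3576 CPM) were abundant. *Col1a2* (13.0 to 2503 CPM) and *Col3a1* (6.01 to 114 CPM) varied widely between groups. *Pdgfrb* (41.5 to 93.5 CPM) and *Twist1* (16.9 to 43.5 CPM) were at moderate levels. The group means of *Thy1*, *Pdgfra* and *Postn* did not exceed 1.45, 4.28 and 5.09 CPM. The leukocyte marker *Ptprc*, the muscle marker *Myod1* and the brown fat marker *Ucp1* were at or near 0, with no group mean above 0.018 CPM. Other genes of the marker lists were counted at low levels, with group means of 3.65 to 27.7 CPM for *Tnnt2* (muscle), up to 6.53 CPM for *Kdr* (endothelium), up to 3.65 CPM for *Cd68* (leukocytes) and up to 3.43 CPM for *Epcam* (epithelium), and their part in the results was not tested. In bulk RNA, fewer cells of one kind and less RNA per cell cannot be told apart.

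Per transcript length, the PGC-1 family was split between 1 abundant and 2 scarce members. In WT cells in DMSO, *Pprc1* had the highest level of the 8 genes, 90.4 ± 3.70 TPM (transcript abundance scaled for length and library size, mean ± SD, n = 4), followed by *Tfam* at 77.5 ± 6.66 TPM, and the libraries of these neighbours overlapped. *Nrf1* (55.1 ± 1.19 TPM) and *Gabpa* (52.4 ± 2.11 TPM) also overlapped, while *Tfb2m* (27.5 ± 1.74 TPM) and *Esrra* (15.2 ± 1.09 TPM) were separate from their neighbours in every library. *Ppargc1b* was at 0.372 ± 0.0775 TPM and *Ppargc1a* at 0.218 ± 0.0545 TPM, below all other members by more than an order of magnitude. In AMPK KO cells in DMSO the order differed in the middle: *Gabpa* (59.3 ± 5.82 TPM) stood above *Nrf1* (45.9 ± 0.740 TPM), and *Esrra* (34.0 ± 1.73 TPM) above *Tfb2m* (28.1 ± 0.789 TPM), with no overlap of libraries in either pair. *Ppargc1a* was counted with only 7 to 66 reads per library, and *Ppargc1b* with 19 to 182, so the precision of both was limited by depth. The TPM of *Tfam* came largely from short transcripts. In WT DMSO, ENSMUST00000152505 (472 bases) was at 28.58 TPM from 184.5 mean reads. ENSMUST00000092430 (4167 bases) was at 17.83 TPM from 1419 mean reads. The place of *Tfam* in the order therefore depends on how reads were assigned to short transcripts.

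**Figure D1:**
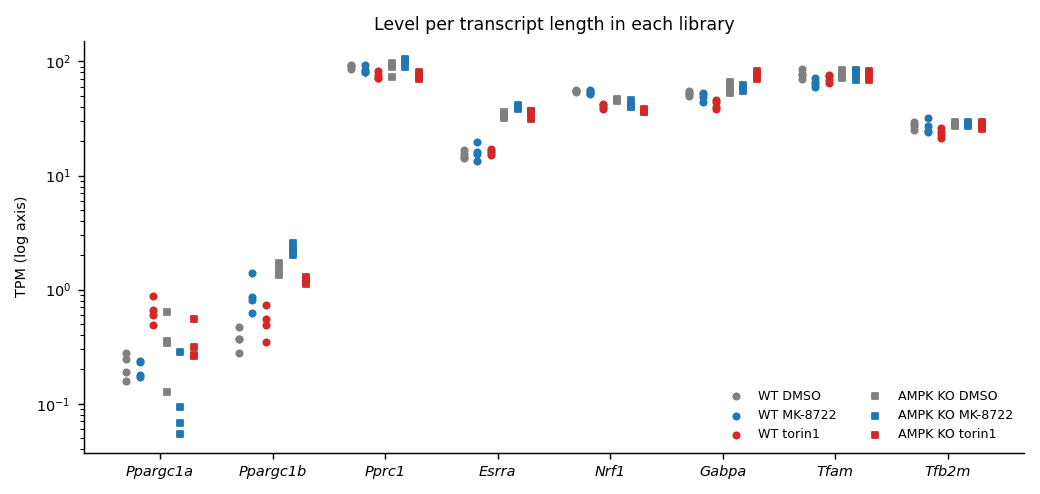
Level of the 8 genes per transcript length in all 24 libraries, in TPM on a log axis, with circles for WT and squares for AMPK KO and colours for DMSO (grey), MK-8722 (blue) and torin1 (red). *Ppargc1a* and *Ppargc1b* lie below 3 TPM in every library, and the other 6 genes between 13 and 105 TPM.

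Promoter sequence from RefSeq (GRCm38.p6) was at hand for 7 of the genes and not for *Ppargc1b*. The 250 bases before each start, 8 windows in all since *Nrf1* has 2 starts, were searched on both strands for the NRF1 core CGCANGCG, the shorter NRF1 site TGCGCA, the GABPA site CCGGAAG, the ESRRA site AAGGTCA, the cyclic AMP response element TGACGTCA and its shorter form TGACG, the core CACGTG bound by TFEB and TFE3, and the ATF4 composite TGATGNAA. The NRF1 core was found in 3 of the 8 windows: the upstream window of *Nrf1* itself, *Gabpa* and *Esrra*, where it occurred at 2 positions. Of 32851 RefSeq promoter windows of the same length, 6.76% held it. G and C made up 76% of that *Nrf1* window, 68.4% for *Esrra* and 59.6% for *Gabpa*. *Tfam* (72%) and *Tfb2m* (69.2%) lacked the core. The share over all promoter windows was not matched for base composition. TGCGCA was found in *Esrra* and *Tfb2m* (6.43% of all windows), the GABPA site in *Gabpa* and *Tfam* (6.91%), TGACG in *Ppargc1a* (17.8%) and the ATF4 composite in *Esrra* (3.45%), outside the stretch shown. No window of the 8 held AAGGTCA (4.08%), TGACGTCA (1.55%) or CACGTG (6.02%). The *Pprc1* window and the downstream *Nrf1* window, which both lie inside the longer annotated genes, held none of the motifs. The *Gabpa* and *Tfam* windows lie partly inside their annotated genes, which start at 84834925 (plus strand) and 71238280 (minus strand). All matches in these windows fall in the part inside the gene. They are upstream of the RefSeq start used here, but not of the annotated gene. A match is a run of letters, not a bound site. Some of the stretches below carry letters of another member's site, but not all do. The *Nrf1* stretch holds the NRF1 core alone, and the *Ppargc1a* stretch holds only TGACG, read on the other strand. Capitals mark the matches, which do not overlap one another.
Nrf1, chr6:30047928-30047987 (+): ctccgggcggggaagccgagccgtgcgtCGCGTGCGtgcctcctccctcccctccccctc
Gabpa, chr16:84835004-84835123 (+): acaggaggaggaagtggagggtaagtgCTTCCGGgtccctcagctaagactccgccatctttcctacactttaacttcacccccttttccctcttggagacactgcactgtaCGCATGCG
Esrra, chr19:6921809-6921958 (-): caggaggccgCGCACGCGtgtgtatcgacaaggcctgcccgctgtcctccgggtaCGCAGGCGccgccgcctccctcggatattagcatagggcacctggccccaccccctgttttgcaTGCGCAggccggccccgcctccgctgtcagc
Tfam, chr10:71238045-71238164 (-): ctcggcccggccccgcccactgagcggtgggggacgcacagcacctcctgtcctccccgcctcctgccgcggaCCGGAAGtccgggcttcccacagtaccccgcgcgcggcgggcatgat
Tfb2m, chr1:179546277-179546476 (-): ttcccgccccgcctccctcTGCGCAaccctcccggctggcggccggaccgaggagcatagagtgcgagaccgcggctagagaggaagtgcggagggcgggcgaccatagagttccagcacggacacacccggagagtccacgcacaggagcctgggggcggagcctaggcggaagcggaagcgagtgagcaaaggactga
Ppargc1a, chr5:51567726-51567845 (-): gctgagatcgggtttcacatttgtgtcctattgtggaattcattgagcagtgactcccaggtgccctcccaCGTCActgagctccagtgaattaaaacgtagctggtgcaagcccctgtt

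Calls followed the limits the study used: a gene had to change 1.2-fold or more in either direction, with an adjusted p below 0.05 from edgeR's quasi-likelihood test (Benjamini-Hochberg over all 15828 genes). MK-8722 against DMSO in WT cells called 1 of the 8 genes, *Ppargc1b*, where 15.7% of all genes tested were called (10.0% higher, 5.66% lower). Torin1 in WT called 4 of 8 against 47.6% of all genes, with 1 higher (26.6% of all genes) and 3 lower (21.1%). In AMPK KO cells, MK-8722 called none of the 8, where 1.56% of genes were called (0.866% higher, 0.695% lower). However, 4 members had an unadjusted p under 0.05 in edgeR, as did 2610 of all 15828 genes, and DESeq2's Wald test called 1. With passage as a block, *Ppargc1a* and *Ppargc1b* were called. The shares of all genes given here are those of the fit without that block, so they cannot be set beside this count. Torin1 in AMPK KO called 2 of 8, both lower (17.6% of all genes; 25.9% higher and 43.5% in all). The share of members called was near that of all genes under torin1 in WT and below it under torin1 in AMPK KO, with only 8 genes counted. Median log2 fold changes of the 8 were -0.08 (MK-8722, WT), 0.08 (MK-8722, AMPK KO), -0.26 (torin1, WT) and -0.11 (torin1, AMPK KO), beside medians of 0.00, 0.00, 0.04 and 0.06 over all genes tested.

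**Figure D2:**
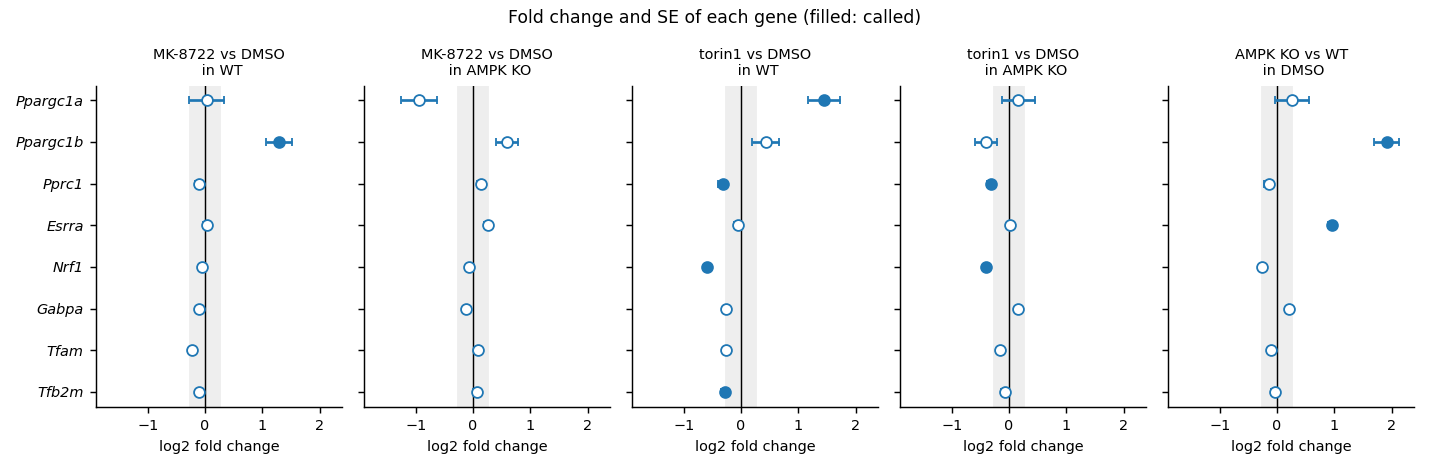
Log2 fold change of each gene (points) with its SE from edgeR (bars, hidden by the point where small) in 5 comparisons, with filled points for called genes and the grey band marking changes under 1.2-fold. *Ppargc1b* is called after MK-8722 in WT, *Ppargc1a*, *Pprc1*, *Nrf1* and *Tfb2m* after torin1 in WT, *Pprc1* and *Nrf1* after torin1 in AMPK KO, and *Ppargc1b* and *Esrra* between genotypes.

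*Ppargc1a* (ENSMUSG00000029167, GRCm38 chromosome 5, 51454250 to 51567726, minus strand) encodes PGC-1α, the founding coactivator of the family. In WT cells it was at 0.597, 0.622, 0.793 and 0.502 CPM in DMSO, at 0.584, 0.694, 0.746 and 0.532 CPM in MK-8722, and at 1.70, 1.46, 1.95 and 1.76 CPM in torin1. The torin1 libraries lay above all others of WT, and DMSO and MK-8722 overlapped throughout. Torin1 raised it 2.74-fold in WT (log2 1.45 ± 0.28 SE, adjusted p = 8.49e-05), whereas the log2 difference after MK-8722 was 0.03 (95% interval -0.62 to 0.67, adjusted p = 0.971).

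In AMPK KO cells *Ppargc1a* was at 0.850, 0.518, 0.976 and 0.660 CPM in DMSO, at 0.385, 0.271, 0.226 and 0.676 CPM in MK-8722, and at 1.41, 0.660, 0.721 and 0.580 CPM in torin1. Groups overlapped in both comparisons with DMSO, and 1 torin1 library, replicate 1, stood far above the other 3. The log2 difference after torin1 was 0.16 ± 0.28 (adjusted p = 0.647) and became -0.21 without that library. The difference between genotypes in the torin1 response was called (log2 -1.29 ± 0.40, adjusted p = 0.0416, n = 4 per group), where 7.07% of all genes were called for this interaction. That call was near its limit: it was lost on leaving out any of 11 of the 16 libraries (adjusted p up to 0.0826), and it was -1.66 (adjusted p = 0.00729) without AMPK KO torin1 replicate 1. After MK-8722 in AMPK KO the log2 difference was -0.95 ± 0.31 (adjusted p = 0.108), not called, but called with passage as a block (-0.94, adjusted p = 0.0461) or without replicate 4, the highest MK-8722 library (-1.34, adjusted p = 0.0387). Under torin1, the AMPK KO level was below that of WT (log2 -1.03 ± 0.26, adjusted p = 0.00145), and no library overlapped in CPM. In TPM they did overlap, at 0.264 to 0.548 in AMPK KO and 0.491 to 0.878 in WT.

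*Ppargc1b* (ENSMUSG00000033871, chromosome 18, 61298136 to 61400431, minus strand) encodes PGC-1β, the closest relative of PGC-1α. WT libraries were at 0.667, 0.878, 0.901 and 1.04 CPM in DMSO, at 2.02, 3.25, 1.88 and 1.46 CPM in MK-8722, and at 1.09, 1.24, 0.768 and 1.63 CPM in torin1. Every MK-8722 library lay above every DMSO library, and the torin1 libraries overlapped both. MK-8722 raised *Ppargc1b* 2.46-fold in WT (log2 1.30 ± 0.23, adjusted p = 0.000126), and this call held under all 13 alternatives tried and without any 1 library (log2 1.03 to 1.45). The torin1 difference in WT was 0.43 ± 0.24 (adjusted p = 0.125) and was called with passage as a block (0.43, adjusted p = 0.0265) or without WT torin1 replicate 3 (0.62, adjusted p = 0.0276).

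In AMPK KO cells *Ppargc1b* was at 3.47, 3.107, 2.84 and 3.81 CPM in DMSO, at 4.59, 4.42, 5.88 and 5.05 CPM in MK-8722, and at 2.64, 2.43, 2.53 and 2.41 CPM in torin1. The 3 groups did not overlap, with MK-8722 highest and torin1 lowest, although neither drug's difference from DMSO was called. The MK-8722 difference was 0.59 ± 0.19 (adjusted p = 0.0862) and the torin1 difference -0.40 ± 0.19 (adjusted p = 0.0790). Both were called with passage as a block (adjusted p = 0.00182 and 0.00709), and torin1 also without AMPK KO DMSO replicate 3 (-0.52, adjusted p = 0.0359). The interactions for *Ppargc1b* missed the threshold for MK-8722 (-0.71 ± 0.29, adjusted p = 0.103) and for torin1 (-0.83 ± 0.31, adjusted p = 0.0884), and passed it with passage as a block (adjusted p = 0.00942 and 0.00673). The rise after MK-8722 in WT was therefore not shown to be absent from AMPK KO cells. Between the drugs, *Ppargc1b* was lower in torin1 than in MK-8722 in both genotypes (log2 -0.87 ± 0.22 in WT, adjusted p = 0.00143, and -0.99 ± 0.19 in AMPK KO, adjusted p = 8.68e-05).

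*Pprc1* (ENSMUSG00000055491, chromosome 19, 46044886 to 46072915, plus strand) encodes PRC, the family member known as a growth-responsive, serum-inducible coactivator. In WT it was at 279, 280.3, 259 and 276 CPM in DMSO and at 209, 214, 217 and 234 CPM in torin1, with no overlap. Torin1 lowered it by similar amounts in both genotypes, by log2 -0.32 ± 0.07 in WT (adjusted p = 0.000438) and -0.32 ± 0.07 in AMPK KO (adjusted p = 0.000583), and the interval of the difference between genotypes was -0.21 to 0.22. In AMPK KO the DMSO libraries spread from 205 to 274 CPM and the torin1 libraries from 189 to 206 CPM, so that 1 DMSO library, replicate 3, fell among the torin1 libraries. Scaling by library size alone moved all genes together and both values under the fold limit, while *Pprc1* relative to the median of all genes stayed at -0.36 in WT and -0.37 in AMPK KO under both scalings. After MK-8722, *Pprc1* differed from DMSO by -0.11 ± 0.07 in WT and 0.14 ± 0.07 in AMPK KO, neither called. The difference between those responses, 0.24 ± 0.10, was not called (adjusted p = 0.105) but was without AMPK KO MK-8722 replicate 2 (0.32, adjusted p = 0.0272) or AMPK KO DMSO replicate 2 (0.30, adjusted p = 0.0493).

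**Figure D3:**
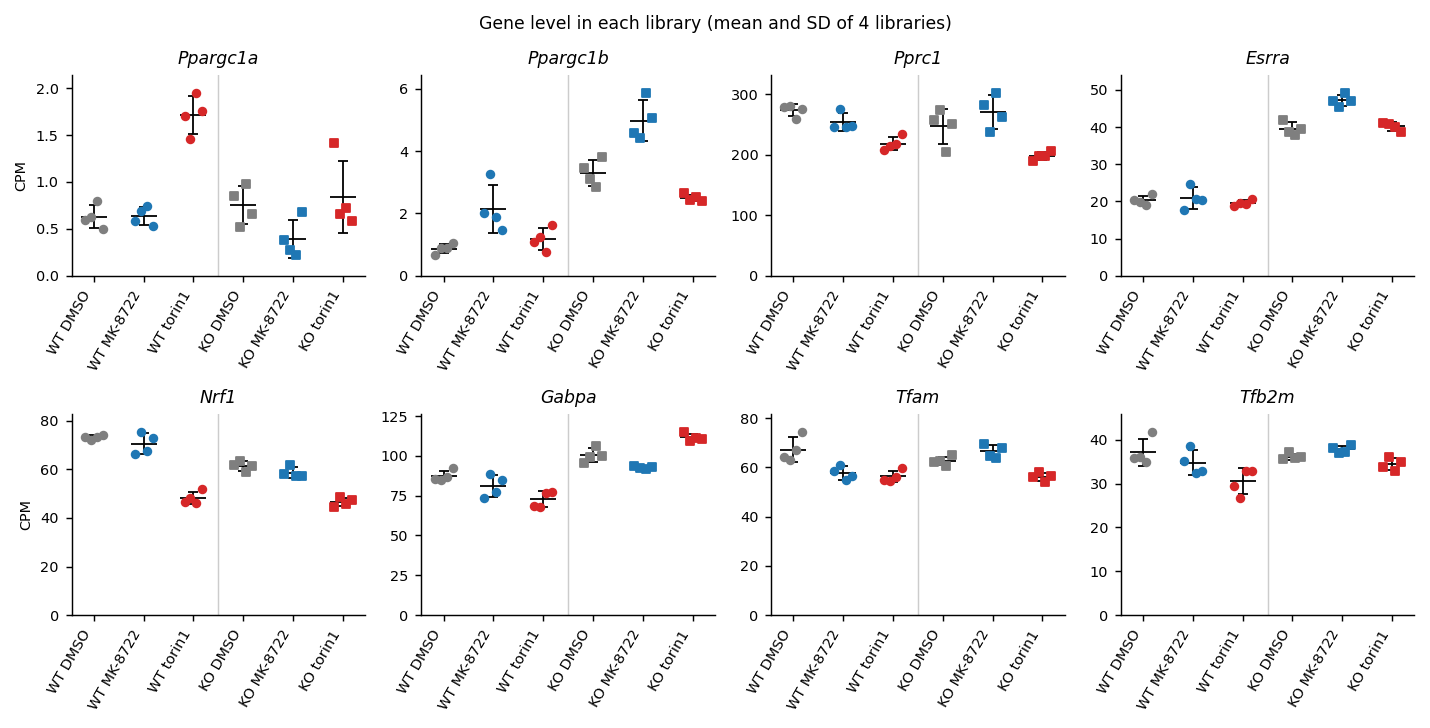
CPM of each of the 8 genes in all 24 libraries (points, circles for WT and squares for AMPK KO) with the mean and SD of the 4 libraries of a group (black bars), on axes that start at 0. The torin1 libraries of *Ppargc1a* stand apart in WT alone, *Esrra* and *Ppargc1b* are higher in every AMPK KO group than in the WT group of the same treatment, and *Gabpa* is lowest in WT torin1 and highest in AMPK KO torin1.

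Among the DNA-binding partners, *Esrra* (ENSMUSG00000024955, chromosome 19, 6910977 to 6921813, minus strand) was called between genotypes and not after either drug. It encodes ERRα, an orphan nuclear receptor that binds the promoters of many respiratory chain genes. WT libraries were at 20.3, 19.7, 19.2 and 21.9 CPM in DMSO and AMPK KO libraries at 42.0, 38.7, 37.9 and 39.6 CPM, a difference of 1.95-fold (log2 0.96 ± 0.07, adjusted p = 7.42e-12). The same contrast was 1.18 ± 0.07 in MK-8722 and 1.04 ± 0.07 in torin1, both called, and the lowest AMPK KO library of any treatment was above the highest of WT. In DMSO, 2 of the 8 members were called between genotypes (*Esrra* and *Ppargc1b*, 3.78-fold, log2 1.92 ± 0.22, adjusted p = 3.74e-08), both higher, where 56.9% of all genes were called (30.9% higher, 26.0% lower). In MK-8722 it was 3 of 8 against 58.9%, and in torin1 4 of 8 against 54.6%. Since most genes tested were called between genotypes, these counts were not particular to the 8 genes, and the contrast includes the difference in passage. The *Nrf1* call in MK-8722 (-0.27 ± 0.05, adjusted p = 1.36e-05) sat at the fold limit and was lost with DESeq2 and without any of 4 single libraries.

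After MK-8722, *Esrra* in AMPK KO was at 47.1, 45.4, 49.2 and 47.1 CPM, above every DMSO library (log2 0.26 ± 0.06, adjusted p = 0.0333), a change just short of the fold limit that passed it without AMPK KO MK-8722 replicate 2 or AMPK KO DMSO replicate 1. In WT the MK-8722 libraries ranged from 17.6 to 24.8 CPM around the DMSO values (log2 0.04 ± 0.07). The difference between genotypes in that response was 0.22 ± 0.10 (adjusted p = 0.121), and was called without WT MK-8722 replicate 2, the library at 24.8 CPM (0.31, adjusted p = 0.00632). Torin1 differences were -0.06 ± 0.07 in WT and 0.02 ± 0.06 in AMPK KO, with intervals of -0.20 to 0.09 and -0.11 to 0.16.

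*Nrf1* (ENSMUSG00000058440, chromosome 6, 30047988 to 30153458, plus strand) encodes nuclear respiratory factor 1, an activator of respiratory chain genes and of *Tfam*. It was at 73.3, 72.1, 73.5 and 74.4 CPM in WT DMSO and at 46.6, 48.3, 46.2 and 52.0 CPM in WT torin1. In AMPK KO it was at 62.0, 63.7, 58.8 and 61.3 CPM in DMSO and at 44.6, 48.6, 45.6 and 47.6 CPM in torin1, again without overlap. Torin1 lowered *Nrf1* by log2 -0.60 ± 0.05 in WT (adjusted p = 7.74e-11) and by -0.40 ± 0.05 in AMPK KO (adjusted p = 9.30e-08). The difference between those responses, 0.20 ± 0.06, had an adjusted p of 0.0470 and stayed under the fold limit. AMPK KO cells started lower (log2 -0.26 ± 0.05 in DMSO, adjusted p = 2.55e-05, under the fold limit), and under torin1 the genotypes differed by -0.05 ± 0.05 (interval -0.15 to 0.04). MK-8722 differences were -0.05 ± 0.05 in WT and -0.07 ± 0.05 in AMPK KO.

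The mix of *Nrf1* transcripts also differed by genotype. Of 20 annotated transcripts, ENSMUST00000115211 held 16.1% to 19.6% of *Nrf1* TPM in WT DMSO libraries and 24.03% to 32.2% in AMPK KO DMSO libraries, and over all treatments WT stayed at or under 20.9% and AMPK KO at or above 24.03%. ENSMUST00000132866 showed the opposite order, 12.7% ± 1.59 against 7.36% ± 0.667 in DMSO, with no overlap under any treatment. These shares are estimates from short reads that fit several transcripts and were not tested. Within AMPK KO, the torin1 libraries held more of ENSMUST00000132866 (8.44% to 10.3%) than the DMSO libraries (6.49% to 8.10%), while the shares of ENSMUST00000115211 overlapped between treatments. *Pprc1* was led by ENSMUST00000111899 (46.1% to 47.2% as group means), and *Tfb2m* was carried mostly by ENSMUST00000027769 (77.6% to 87.9% as group means). For *Ppargc1a* the shares rested on too few reads to be read.

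**Figure D4:**
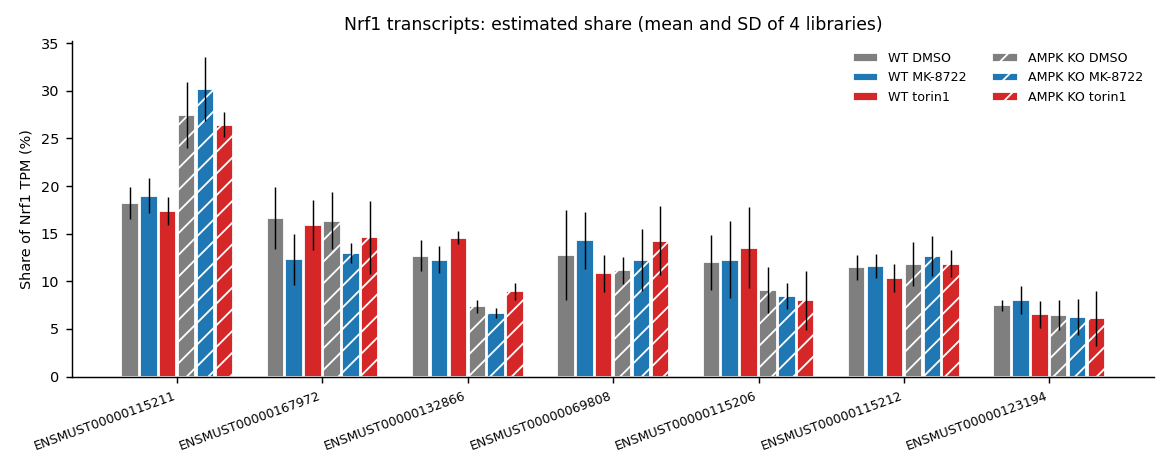
Estimated share of *Nrf1* TPM (in percent, mean and SD of 4 libraries) of the 7 transcripts with the largest share, with plain bars for WT and hatched bars for AMPK KO. ENSMUST00000115211 is at 17.4% to 19.0% in the WT groups and at 26.5% to 30.2% in the AMPK KO groups.

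*Gabpa* (ENSMUSG00000008976, chromosome 16, 84834925 to 84863779, plus strand) encodes the ETS-family subunit that gives the GABP complex its DNA binding. Its torin1 response ran in opposite directions in the 2 genotypes. WT libraries were at 85.2, 85.1, 86.7 and 92.1 CPM in DMSO and at 68.8, 68.1, 76.9 and 77.1 CPM in torin1. AMPK KO libraries were at 95.8, 99.2, 106 and 100.2 CPM in DMSO and at 115, 109.6, 111 and 111 CPM in torin1. Every torin1 library lay below DMSO in WT and above DMSO in AMPK KO. The differences were -0.26 ± 0.05 in WT (adjusted p = 0.000109) and 0.15 ± 0.05 in AMPK KO (adjusted p = 0.0131), both under the fold limit, and in WT by so little that 7 of 13 alternatives called it, the replicate block (-0.26, adjusted p = 0.000128) and the passage block (-0.26, adjusted p = 1.47e-06) among them. Their difference was called (log2 0.42 ± 0.07, adjusted p = 0.000823) and held without any 1 of the 16 libraries (0.32 to 0.44). It was larger with a transcript length offset (0.68, from -0.43 in WT and 0.25 in AMPK KO). That offset uses estimated transcript shares, some of which rest on few reads. ENSMUST00000139101 (336 bases) held 11.6% of *Gabpa* TPM in WT DMSO and 4.71% in WT torin1, from 23.91 and 7.735 mean reads. In AMPK KO it held 6.89% in DMSO and 12.6% in torin1, from 16.75 and 37.93 mean reads. Under torin1, *Gabpa* was 1.53-fold higher in AMPK KO than in WT (log2 0.62 ± 0.05, adjusted p = 1.67e-10), against 0.20 ± 0.05 in DMSO (adjusted p = 0.00120, under the fold limit). MK-8722 differences were -0.10 ± 0.05 in WT and -0.12 ± 0.05 in AMPK KO, neither called.

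The mitochondrial transcription factors had the narrowest range of group means, with 1.24-fold between the lowest and highest group for *Tfb2m* and less for *Tfam*. *Tfam* (ENSMUSG00000003923, chromosome 10, 71225464 to 71238280, minus strand) was at 64.3, 63.0, 67.1 and 74.3 CPM in WT DMSO, at 58.6, 61.0, 54.8 and 56.3 CPM in WT MK-8722 and at 54.9, 54.6, 56.2 and 59.6 CPM in WT torin1. Both drug groups lay below DMSO in every library, by -0.22 ± 0.05 for MK-8722 (adjusted p = 0.00123) and -0.25 ± 0.05 for torin1 (adjusted p = 7.11e-05), which are changes of less than 1.2-fold and so not calls. In AMPK KO, *Tfam* was at 62.3, 62.5, 60.6 and 64.9 CPM in DMSO, at 69.3, 64.7, 63.8 and 68.0 CPM in MK-8722 and at 56.0, 58.0, 54.2 and 56.5 CPM in torin1. Torin1 libraries again lay below DMSO (-0.16 ± 0.05, adjusted p = 0.00793), whereas MK-8722 libraries overlapped DMSO (0.09 ± 0.05, adjusted p = 0.383). These separations of *Tfam* hold in CPM and not in TPM. In AMPK KO it was at 75.4 ± 6.15 TPM in torin1 and 75.6 ± 5.23 TPM in DMSO, with overlap. In WT, torin1 (71.1 ± 5.47 TPM) and MK-8722 (65.3 ± 5.38 TPM) both overlapped DMSO (77.5 ± 6.66 TPM). These TPM of *Tfam* depend on estimated shares of short transcripts, which could vary widely within a group. ENSMUST00000145220 (596 bases) held 6.088% to 28.13% of *Tfam* TPM in AMPK KO torin1 libraries. The longest listed transcript, ENSMUST00000092430, held 19.81% to 24.31% there. The MK-8722 responses of the genotypes differed by 0.31 ± 0.07 (adjusted p = 0.00289), the 1 member called for this interaction, where 12.8% of all genes were. That call was lost without WT DMSO replicate 4, the highest library (0.25), and with a transcript length offset (0.30, adjusted p = 0.0737). The torin1 interaction of *Tfam* was 0.10 ± 0.07 (adjusted p = 0.409).

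*Tfb2m* (ENSMUSG00000026492, chromosome 1, 179528055 to 179546267, minus strand) encodes the factor that helps the mitochondrial RNA polymerase open promoters. Its estimated counts were not whole numbers, which arises where reads are divided between genes, so its values are less certain than those of the other members. It was at 35.9, 36.1, 35.0 and 41.8 CPM in WT DMSO and at 29.5, 26.8, 32.9 and 32.9 CPM in WT torin1, with no overlap (log2 -0.28 ± 0.06, adjusted p = 0.000557). This call was lost without WT torin1 replicate 1, WT torin1 replicate 2 or WT DMSO replicate 4 (log2 -0.25 to -0.23). In TPM the WT libraries overlapped, at 21.5 to 26.3 in torin1 and 25.3 to 29.4 in DMSO. In AMPK KO the torin1 difference was -0.07 ± 0.06 (adjusted p = 0.375), and the interaction was 0.22 ± 0.09 (adjusted p = 0.144). No group mean of *Tfb2m* in AMPK KO was outside 34.5 to 37.9 CPM.

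Set directly against each other, torin1 and MK-8722 differed in 3 of 8 members in WT (45.7% of all genes) and in 5 of 8 in AMPK KO (45.5%). *Ppargc1a* was higher in torin1 in both genotypes (log2 1.43 ± 0.28 in WT, adjusted p = 0.000120, and 1.11 ± 0.31 in AMPK KO, adjusted p = 0.00359), and *Nrf1* lower (-0.55 ± 0.05, adjusted p = 4.83e-10, and -0.33 ± 0.05, adjusted p = 1.30e-06). *Pprc1* (-0.45 ± 0.07, adjusted p = 9.04e-06) and *Gabpa* (0.27 ± 0.05, adjusted p = 8.49e-05) were called in AMPK KO, the latter just over the fold limit and lost under 8 of 13 alternatives. These comparisons share their libraries with those against DMSO.

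Over the 24 libraries, with each genotype centred on its mean log2 CPM, *Tfam* and *Tfb2m* were the most alike pair of members (Pearson's r 0.80), followed by *Pprc1* and *Nrf1* (0.77), while *Ppargc1a* ran opposite to *Nrf1* (-0.73) and *Pprc1* (-0.71). *Ppargc1b* was most like *Esrra* (0.60) and *Gabpa* was at most 0.41 with any member. The libraries share 6 group means, so these values describe the groups more than single libraries. Among 10026 genes of at least 5 CPM, those most like each member were *Rfc3* (0.84) and *Dtl* (0.84) for *Ppargc1a*, *Napa* (0.86) and *Nup188* (0.85) for *Ppargc1b*, *Pwp2* (0.97) and *Urb1* (0.96) for *Pprc1*, and *Polr1b* (0.80) and *Hmga1* (0.79) for *Esrra*. For the other 4 they were *Map3k3* (0.97) and *Celf1* (0.97) for *Nrf1*, *Eogt* (0.87) and *Sgo1* (0.84) for *Gabpa*, *Dkc1* (0.93) and *Nop58* (0.92) for *Tfam*, and *Rpp14* (0.88) and *Utp20* (0.88) for *Tfb2m*.

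A list of 30 nuclear-encoded genes named in textbooks as targets of NRF1, GABPA or ERRα was examined as the next tier of the pathway. Like the lists that follow, it was chosen with earlier results of these data known, so its counts are a description. After torin1, 17 of the 30 fell and 2 rose in WT (median log2 -0.36), where 21.1% of all genes fell and 26.6% rose. In AMPK KO 19 fell and 1 rose (median -0.37), where 17.6% of all genes fell and 25.9% rose. *Cycs*, which encodes somatic cytochrome c, fell from 134 ± 7.55 to 53.2 ± 6.09 CPM in WT (log2 -1.33 ± 0.06, adjusted p = 2.10e-14) and from 160 ± 5.06 to 71.6 ± 4.33 CPM in AMPK KO (-1.16 ± 0.06, adjusted p = 4.20e-13). *Ndufs8*, a complex I subunit, fell by 0.85 on the log2 scale in WT (adjusted p = 2.02e-12) and by 0.75 in AMPK KO (adjusted p = 1.82e-11). *Sirt3*, a mitochondrial deacetylase, rose in both (0.76 ± 0.11, adjusted p = 2.65e-06, and 0.60 ± 0.11, adjusted p = 4.96e-05), as did *Alas1*, the first enzyme of haem synthesis, in WT (0.56 ± 0.06, adjusted p = 3.81e-08). After MK-8722, 1 of the 30 rose in WT, against 10.0% of all genes (*Alas1*, 0.35 ± 0.06, adjusted p = 0.000152). None passed edgeR's thresholds in AMPK KO, where 1.56% of all genes did, and DESeq2 called none. An unadjusted p under 0.05 was found for 3 of the 30, beside 2610 of all 15828 genes. Between genotypes in DMSO, 10 were higher and 7 lower in AMPK KO, near the 30.9% and 26.0% of all genes, among them *Alas1* (0.54 ± 0.06, adjusted p = 4.09e-08) higher, and *Hspa9* (-0.46 ± 0.11, adjusted p = 0.000775) and *Uqcrb* (-0.42 ± 0.07, adjusted p = 1.04e-05) lower.

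Of 30 other genes of mitochondrial DNA transcription, replication and maintenance, torin1 raised 10 and lowered 7 in WT and raised 10 and lowered 6 in AMPK KO. These counts were near the shares of all genes, 26.6% higher and 21.1% lower in WT, with 25.9% and 17.6% for AMPK KO cells, and are not particular to the list. *Tfb1m*, the paralogue of *Tfb2m* that methylates mitochondrial ribosomal RNA, rose in both genotypes (log2 1.11 ± 0.14, adjusted p = 2.40e-07, and 0.61 ± 0.13, adjusted p = 0.000305). *Primpol*, a primase-polymerase, rose by 1.39 ± 0.14 (adjusted p = 7.51e-09) and 1.04 ± 0.13 (adjusted p = 4.86e-07), and *Mterf3*, a repressor of mitochondrial transcription, fell by 0.71 (adjusted p = 1.35e-09) and 0.57 (adjusted p = 8.88e-08). *Fastkd5* fell by 0.59 in WT (adjusted p = 5.95e-08), and *Slirp*, which stabilises mitochondrial messenger RNA, fell by 0.74 in AMPK KO (adjusted p = 1.70e-10). After MK-8722 in WT, where 10.0% of all genes rose and 5.66% fell, *Primpol* (0.46 ± 0.14, adjusted p = 0.0178) and *Lrpprc* (0.33 ± 0.05, adjusted p = 6.27e-05), the partner of SLIRP, rose and *Fastkd5* fell (-0.40 ± 0.07, adjusted p = 7.56e-05). None was called in AMPK KO by edgeR or DESeq2, where edgeR called 1.56% of all genes. In edgeR, 7 had an unadjusted p under 0.05, beside 2610 of all 15828 genes. Between genotypes in DMSO, 8 were higher (30.9% of all genes) and 4 lower (26.0%), with *Tfb1m* (0.77 ± 0.14, adjusted p = 2.88e-05) and *Top1mt* (0.72 ± 0.08, adjusted p = 1.15e-08) at one end and *Hsd17b10* (-0.55 ± 0.05, adjusted p = 9.08e-10) and *Exog* (-0.52 ± 0.07, adjusted p = 2.61e-07) at the other.

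The 13 protein-coding genes of the mitochondrial genome, the products of TFAM- and TFB2M-dependent transcription, took 1.197% to 1.502% of all counts as group means. Their counts of 1 to 4 called genes per comparison can be read against 15.7% (MK-8722 in WT), 47.6% and 43.5% (torin1 in WT and AMPK KO) and 56.9% (genotypes in DMSO) of all genes. In WT, MK-8722 raised *mt-Co1* (log2 0.36 ± 0.08, adjusted p = 0.00209) and lowered *mt-Nd1* (-0.26 ± 0.08, adjusted p = 0.0198) and *mt-Nd2* (-0.26 ± 0.10, adjusted p = 0.0459). Torin1 in WT raised *mt-Nd6* (0.98 ± 0.18, adjusted p = 5.70e-05) and *mt-Co1* (0.33 ± 0.08, adjusted p = 0.00137) and lowered *mt-Nd2* (-0.34 ± 0.10, adjusted p = 0.00445) and *mt-Nd3* (-0.36 ± 0.10, adjusted p = 0.00345). The level of *mt-Nd6* was low, at 10.2 ± 1.70 CPM in WT DMSO beside 2929 ± 172 CPM for *mt-Co1*. In AMPK KO, torin1 raised *mt-Nd6* (0.78 ± 0.18, adjusted p = 0.000592) and lowered 3 genes, among them *mt-Nd2* (-0.50 ± 0.10, adjusted p = 0.000124) and *mt-Nd1* (-0.41 ± 0.08, adjusted p = 0.000194). MK-8722 in AMPK KO called none by edgeR, where 1.56% of all genes were called, and 1 by DESeq2. In edgeR, 1 had an unadjusted p under 0.05, beside 2610 of all 15828 genes, while all 13 fitted values were above 0 (median log2 0.12). *mt-Nd3* was the gene called between genotypes in DMSO (0.40 ± 0.10, adjusted p = 0.000920).

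Of 30 other co-regulators of the PGC-1 axis, 29 were tested and *Perm1* was not. MK-8722 raised 4 and lowered none in WT (10.0% and 5.66% of all genes), with *Mef2c* (log2 0.59 ± 0.19, adjusted p = 0.0219) and *Mef2a* (0.50 ± 0.09, adjusted p = 8.68e-05), muscle transcription factors known to act with PGC-1α, the largest of at least 5 CPM. In AMPK KO it called none by edgeR or DESeq2, where edgeR called 1.56% of all genes. In edgeR, 6 had an unadjusted p under 0.05, beside 2610 of all 15828 genes. Torin1 raised 4 and lowered 8 in WT (26.6% and 21.1% of all genes) and raised 8 and lowered 3 in AMPK KO (25.9% and 17.6%). *Foxo1*, a forkhead factor that binds the *Ppargc1a* promoter in liver, rose in both (0.91 ± 0.11, adjusted p = 1.50e-07, and 0.70 ± 0.12, adjusted p = 1.57e-05), and *Sirt1*, which deacetylates PGC-1α, rose in WT (0.56 ± 0.07, adjusted p = 2.12e-07). *Gabpb1*, the partner subunit of GABPA, fell in WT (-0.55 ± 0.05, adjusted p = 9.22e-10), as did *Mef2c* (-0.56 ± 0.20, adjusted p = 0.0167). In AMPK KO, *Ncoa1* rose (0.54 ± 0.13, adjusted p = 0.000839) while *Prmt1* (-0.47 ± 0.05, adjusted p = 5.33e-08) and *Mef2c* (-0.59 ± 0.24, adjusted p = 0.0375) fell. Between genotypes in DMSO, 5 were higher and 11 lower (30.9% and 26.0% of all genes), led by *Ppard* (0.75 ± 0.06, adjusted p = 5.81e-11) and *Ncoa1* (0.71 ± 0.14, adjusted p = 6.40e-05) and by *Mef2c* (-1.75 ± 0.21, adjusted p = 8.40e-08) and *Mef2a* (-1.51 ± 0.09, adjusted p = 3.05e-13).

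**Figure D5:**
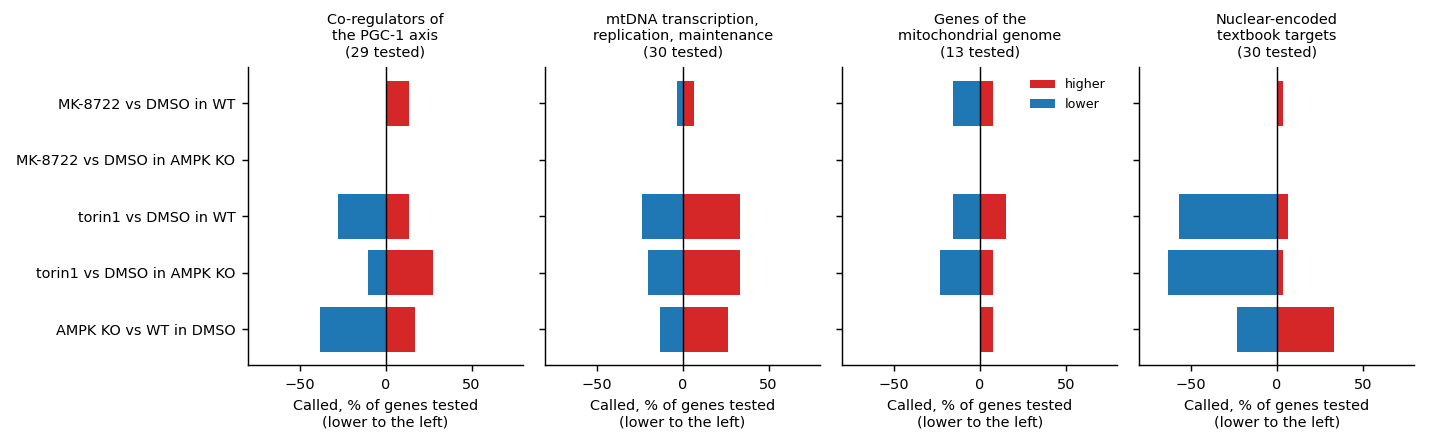
Share of the tested genes of 4 lists called higher (red, to the right) or lower (blue, to the left) in 5 comparisons, in percent of the genes tested in each list. The textbook targets lie mostly on the lower side after torin1 (17 of 30 in WT, 19 of 30 in AMPK KO). No gene of the lists was called by edgeR after MK-8722 in AMPK KO, where 1.56% of all genes were. The lists were chosen with earlier results of these data known.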

How the data were processed

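The study treated WT and AMPK KO MEFs with DMSO, MK-8722 or torin1 and sequenced poly(A) RNA as short read pairs with molecular identifiers. The authors ran the nf-core/rnaseq pipeline with STAR and Salmon on GRCm38 and deposited raw estimated counts for each gene, with TPM for each transcript scaled by their tool for length and depth. Estimated counts were rounded here and fitted with edgeR 4.0.16 (R 4.3.3): filterByExpr, TMM scaling, 1 quasi-likelihood fit of 6 group means over all 24 libraries without a block, two-sided tests and Benjamini-Hochberg adjustment over 15828 genes. Calls required a change of 1.2-fold or more with an adjusted p below 0.05. CPM are TMM-scaled counts; gene TPM are sums over transcripts. Intervals are 95%. The batch removal the study mentions was not repeated, since all libraries carry 1 batch label.

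Alternatives were DESeq2 1.42.0, 2 other scalings, other filters, unrounded counts, a transcript length offset, replicate or passage blocks, the compared groups alone, other thresholds and each library left out. Every passage of a genotype occurred in each treatment. Same-passage libraries of a genotype deviated together (median r of deviations 0.129 over 24 pairs, 15 above 0.1) more than other pairs of that genotype (0 of 72 above 0.1). The labels do not say whether libraries of a passage shared a culture, and passage stayed an alternative. The main fit leaves this matching unused. Differences within a genotype, and interactions, that it did not call are to be read beside the passage block. Named genes were the 8 members, up to 2 rises and 2 falls per list and comparison at 5 CPM or more, and the 2 genes most correlated with each member. One gene that this rule names is not reported here. Members and lists were chosen with earlier results of these data known. The fit was tested on simulated data.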

Additional observations from a re-analysis of the deposited data

Results flagged for a closer look

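Over 48 sets of 4 libraries (8 genes in 6 groups), 3 held a library that stood apart from the other 3 by Dixon's criterion, and chance gives about 1 in 20. *Ppargc1a* was at 1.41 CPM in AMPK KO torin1 replicate 1, with the next library at 0.721 CPM. *Pprc1* was at 276 CPM in WT MK-8722 replicate 2, with the next at 247 CPM. *Tfb2m* was at 41.8 CPM in WT DMSO replicate 4, with the next at 36.1 CPM.

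In 3 cases the response to a drug differed between genotypes by the interaction test in edgeR. For MK-8722 this was 1 of 8 members, where 12.8% of all genes were called. For torin1 it was 2 of 8, where 7.07% of all genes were called. *Tfam* responded to MK-8722 with a difference of log2 0.31 (AMPK KO response minus WT response). This call was lost without the highest WT DMSO library and with a transcript length offset. *Gabpa* responded to torin1 with a difference of 0.42, lower in WT and higher in AMPK KO. *Ppargc1a* responded to torin1 with a difference of -1.29, and this call depended on single libraries.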

How the results depend on the processing

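Over 1109 refits of single values under other processing, 996 kept direction and call, 38 lost a call, 51 gained one and 24 changed sign. Of the 577 refits of called values, libraries left out included, 64 lost the call and none changed direction. *Ppargc1a* could not be fitted with at least 10 counts in every library. Replicate numbers did not pair libraries (r of deviations -0.196 to 0.250 over 60 pairs, 5 above 0.1), and the replicate block gave 1, 5, 0, 2, 2, 3, 4, 3, 5, 1 and 2 members called in the order of comparisons below, adding *Gabpa* for torin1 in WT and changing no other call.

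The number of members called moved as follows. The shares of all genes given above belong to the main fit, and shares under each setting are not given. These counts therefore do not show whether members moved more than other genes. For MK-8722 in WT, reported as 1, it was 2 with a length offset or adjusted p alone, and 1 to 2 without 1 library. For torin1 in WT, reported as 4, it was 2 with library size alone, at least 10 counts in every library, a fold of 1.5 or a test against 1.2, 6 without a filter, with the passage block, adjusted p alone or the compared groups alone, 5 with unrounded counts or a length offset, and 3 to 6 without 1 library. For MK-8722 in AMPK KO, reported as 0, it was 2 with the passage block, 1 with adjusted p alone, the compared groups alone or DESeq2, and 0 to 1 without 1 library. For torin1 in AMPK KO, reported as 2, it was 1 with library size alone or a test against 1.2, 4 with adjusted p alone, 0 with a fold of 1.5, and 2 to 3 without 1 library. For AMPK KO against WT in DMSO (2) and in MK-8722 (3) it was 4 and 5 with adjusted p alone, and 2 to 3 without 1 library in both. In torin1 (4) it was 3 with at least 10 counts, 5 with library size alone or adjusted p alone, and 4 without any 1 library. For torin1 against MK-8722 in WT (3) it was 5 with a length offset and 6 with adjusted p alone. In AMPK KO (5) it was 3 with at least 10 counts or a test against 1.2, 2 with a fold of 1.5, 7 with adjusted p alone, 6 with the compared groups alone, 4 without a filter or with library size alone, and 4 to 6 without 1 library. The MK-8722 interaction (1) gave 2 with the passage block, 0 with a length offset, a fold of 1.5 or a test against 1.2, and 0 to 2 without 1 library. The torin1 interaction (2) gave 1 without a filter, with at least 10 counts, a length offset or a fold of 1.5, 0 with a test against 1.2, and 1 to 2 without 1 library.

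Only values that had not been called changed sign. With a length offset these were *Ppargc1a* (-0.11, MK-8722 in WT; -0.082, torin1 in AMPK KO), *Esrra* (-0.074, torin1 in AMPK KO; -0.051, torin1 interaction), *Tfb2m* (-0.015, AMPK KO against WT in MK-8722), *Tfam* (0.035, torin1 against MK-8722 in WT) and *Gabpa* (0.093, MK-8722 interaction). With library size alone, which moves all genes alike, they were *Esrra* (0.042, torin1 in WT), *Tfam* (0.037 and 0.098, AMPK KO against WT in DMSO and torin1; 0.058, torin1 against MK-8722 in WT), *Tfb2m* (0.097, AMPK KO against WT in DMSO), *Nrf1* (0.050, AMPK KO against WT in torin1) and *Pprc1* (-0.031, torin1 interaction). With at least 10 counts they were *Tfb2m* (0.012, AMPK KO against WT in DMSO), *Tfam* (0.00093, AMPK KO against WT in torin1; 0.012, torin1 against MK-8722 in WT) and *Pprc1* (-0.046, torin1 interaction). With the compared groups alone they were *Esrra* (-0.020, torin1 in AMPK KO) and *Pprc1* (-0.068, torin1 interaction), without a filter *Nrf1* (0.0032) and *Gabpa* (0.0044, MK-8722 interaction), and with DESeq2's size factors or test *Pprc1* (-0.020, torin1 interaction).

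Without 1 library, sign changes were within -0.071 to 0.14 for *Ppargc1a* and -0.057 to 0.11 for *Esrra* (MK-8722 in WT), -0.21 to 0.27 for *Ppargc1a* and -0.043 to 0.046 for *Esrra* (torin1 in AMPK KO), -0.11 to 0.0055 for *Tfb2m* (AMPK KO against WT in DMSO), -0.10 to 0.0091 for *Tfam* (the same in torin1), -0.18 to 0.021 for *Esrra* and -0.056 to 0.015 for *Tfam* (torin1 against MK-8722 in WT), -0.044 to 0.018 for *Nrf1* and -0.057 to 0.032 for *Gabpa* (MK-8722 interaction), and -0.15 to 0.061 for *Pprc1* and -0.012 to 0.11 for *Esrra* (torin1 interaction). Relative to the median of all genes, values under library size alone were as reported (*Esrra* -0.09 for torin1 in WT and *Tfam* -0.12 for AMPK KO against WT in DMSO under both scalings). Library size alone moved the median of all genes between genotypes by 0.139 (DMSO), 0.113 (MK-8722) and 0.102 (torin1), and the share of called genes that were higher from 55.8% to 67.5% for torin1 in WT and from 54.3% to 67.4% between genotypes in DMSO. The causes were not tested. Depth limits *Ppargc1a* (7 to 66 reads) and *Ppargc1b* (19 to 182) most.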
